A study of Rattus norvegicus with 6 samples.

Results

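Histone chaperones bind newly made or recycled histones and hand them to DNA, and the 10 genes described here are 9 subunits of the main histone H3 deposition pathways together with Bend3, in rat PC12 cells with and without PCBP-1 overexpression. They were taken from the count table by an exact match of the gene symbol, and all 10 were found, each in 1 row, among 20609 genes. The set was chosen by the difference of Hira and Bend3 between the groups in these same libraries. The fold changes of those genes, with their standard errors and intervals, are therefore a description, and their passing a threshold supports nothing, while the other 8 genes were tested in the fit across all genes. All 10 passed the filter on low counts, which kept 12624 genes. Hira and Bend3 passed it through PCBP1-OE, where all 3 libraries reached the level of 0.482 CPM. For Hira 0 controls reached it, so a gene that passed in this way had to differ. For Bend3 1 control reached it too, so passing in this way favored a difference without forcing one. PC12 cells are an established rat line grown from a pheochromocytoma, which is an adrenal medullary tumor. The control group was 3 libraries of PC12 cells that received a control plasmid, and the PCBP1-OE group was 3 libraries of the same line after it received a plasmid for EGFP-tagged PCBP-1, an RNA binding protein with KH domains that prefers C-rich sequence. The methods describe Lipofectamine transfection while the study also speaks of stable overexpression, so which of these the sequenced cells had is not clear, and what the control plasmid carried is not stated. The labels number the libraries but do not say that they came from separate cultures, although the study speaks of biological replicates. The tests measure the spread between these libraries, which may be technical.

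The HIRA complex (HIRA, UBN1 and CABIN1) places the histone variant H3.3 into chromatin outside of DNA replication, at active genes and wherever nucleosomes are lost. DAXX and ATRX place H3.3 at telomeres and pericentric heterochromatin, and CAF-1, whose large subunits are CHAF1A and CHAF1B, places replicative H3 behind the replication fork. ASF1A and ASF1B carry H3-H4 dimers to these complexes, with ASF1A tied more to HIRA and ASF1B more to CAF-1 and to proliferating cells. BEND3 is a DNA-binding protein with BEN domains that represses transcription and is found at heterochromatin.

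The 6 libraries held 19730209 to 22315623 counts on genes. At least 1 count was found for 16950 to 17085 genes in controls and for 17153 to 17390 genes in PCBP1-OE libraries, ranges that did not overlap. CPM values below are counts divided by the library size and brought to a common scale, with TMM factors of 0.968 to 1.03 for single genes and without them for sums over a list. Of 8 chromaffin cell markers, 7 were matched, and 5 of these had at most 10 counts in every library, among them Dbh, Ddc, Chga and Chgb, which define catecholamine-producing chromaffin cells. Th, which makes the catecholamine precursor, was at 6.85 to 8.86 CPM. The labelled cell type therefore rests on the labels, with most of its defining transcripts at or near 0. Summed over the list, chromaffin markers were at 8.44 to 9.74 CPM in controls and 8.99 to 10.2 CPM in PCBP1-OE. Markers of other cell types, of which 10 of 12 were matched and 6 had at most 10 counts in every library, were at 14.4 to 15.6 CPM in controls and 12.5 to 14.3 CPM in PCBP1-OE. The groups did not overlap for Slc18a1, a vesicular monoamine transporter, at a log2 fold change of 0.47 (adjusted p = 0.296 by edgeR's quasi-likelihood test), for Cd68 of macrophages at -0.36 (0.185) or for Gfap of astrocytes at -0.32 (0.217), none of which passed. The PCBP-1 gene itself was not analysed here.

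Because Hira and Bend3 were higher together, their promoters are shown, each with 250 bases before and 50 bases after the start of the gene. They come from RefSeq on the assembly GRCr8 and run 5′ to 3′ on the strand of the gene, with every CG dinucleotide in capitals. The Hira promoter lies at chr11:95637516-95637815 on the minus strand, and the Bend3 promoter at chr20:48562133-48562432 on the plus strand.
Hira: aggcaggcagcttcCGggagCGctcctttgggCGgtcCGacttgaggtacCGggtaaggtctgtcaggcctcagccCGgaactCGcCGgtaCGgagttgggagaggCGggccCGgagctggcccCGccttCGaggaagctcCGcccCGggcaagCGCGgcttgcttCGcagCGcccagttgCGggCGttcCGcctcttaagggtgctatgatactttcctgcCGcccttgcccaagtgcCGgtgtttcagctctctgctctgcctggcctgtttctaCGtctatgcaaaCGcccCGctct
Bend3: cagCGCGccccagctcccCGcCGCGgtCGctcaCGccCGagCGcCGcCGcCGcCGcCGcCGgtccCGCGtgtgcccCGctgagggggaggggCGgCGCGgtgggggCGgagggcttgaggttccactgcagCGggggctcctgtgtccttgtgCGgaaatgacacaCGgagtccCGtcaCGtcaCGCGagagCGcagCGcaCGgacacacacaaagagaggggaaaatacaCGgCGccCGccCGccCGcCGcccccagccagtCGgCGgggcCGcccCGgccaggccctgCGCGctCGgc

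The Hira window held 27 CG dinucleotides and the Bend3 window 45, against a median of 7 over all 33469 promoters of the same length, which put them at the 87.3th and 98.6th percentiles. The promoter table matched 9 of the 10 genes, all but Asf1a, and the counts ran from 11 in Atrx to 45 in Bend3, so all 9 lay above the median of all promoters. The 33469 promoters were not limited to genes that passed the filter here, so these 9 were not compared with promoters of tested genes alone. The CG count was chosen as a measure after the sequences were seen. A search of these 9 windows on both strands found none of the letters TTTCCCGC or TTTGGCGC, forms of the E2F site of S-phase genes. These letters were present in 0.974% and 0.493% of all promoters. CCCACGCG, a form of the site that BEND3 binds, was in 1.01% of all promoters and in 0 of the 9, and GAAANNGAA, a core of the interferon response element, was in 9.71% of all and in 0 of the 9. None of the 4 strings is contained in another, and a missing match says only that these letters are not in these windows.

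Hira (ENSRNOG00000045770, chromosome 11 on Rnor_6.0), the subunit for which the HIRA complex is named, had 5, 7 and 4 counts in control replicates 1, 2 and 3 and 16, 25 and 11 counts in PCBP1-OE replicates 1, 2 and 3. Scaled by library size, these were 0.255, 0.335 and 0.178 CPM in controls and 0.726, 1.24 and 0.562 CPM in PCBP1-OE. Every PCBP1-OE library lay above every control, and PCBP1-OE replicate 2 was the highest. The mean was 0.256 ± 0.0785 CPM in controls and 0.842 ± 0.353 CPM in PCBP1-OE (SD, n = 3 each). The edgeR fit put the difference at 3.25-fold, or 1.7 on the log2 scale with a standard error of 0.46. Without PCBP1-OE replicate 2 the log2 fold change was 1.33, and without control replicate 2 it was 1.95.

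These Hira values rest on 68 counts over all 6 libraries, against 2979 to 7204 counts for each of the other 8 chaperone genes. The exact 95% Poisson interval, which covers counting error only, ran from 2.81 to 14.4 counts for control replicate 2 and from 5.49 to 19.7 counts for PCBP1-OE replicate 3, so the nearest single libraries of the 2 groups were not separated by counting error. Summed over each group, the intervals were 9.15 to 26.0 counts for the 16 in controls and 38.8 to 68.2 counts for the 52 in PCBP1-OE. The table also holds LOC100911837, described as a protein HIRA-like gene and placed on chromosome 11 too, with 1, 2 and 0 counts in the control libraries and 2, 6 and 3 in the PCBP1-OE libraries. Reads that match both rows equally well would not be mapped uniquely, and the authors counted unique reads, so the low Hira count is uncertain as a measure of the Hira transcript. With both rows added, the log2 fold change was 1.73, and the sums were 6, 9 and 4 counts for the control libraries and 18, 31 and 14 for the PCBP1-OE libraries.

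Bend3 (ENSRNOG00000046505, chromosome 20) had 10, 4 and 9 counts in the 3 controls and 28, 31 and 19 counts in the 3 PCBP1-OE libraries, 101 in all. The scaled values were 0.51, 0.192 and 0.401 CPM in controls and 1.27, 1.54 and 0.97 CPM in PCBP1-OE. The groups did not overlap and control replicate 2 was the lowest library. The highest was PCBP1-OE replicate 2, which was also the highest for Hira. The mean was 0.368 ± 0.162 CPM against 1.26 ± 0.283 CPM in PCBP1-OE (SD, n = 3 each). Fitted by edgeR, the difference was 3.41-fold, or 1.77 on the log2 scale with a standard error of 0.38. Leaving out control replicate 2 gave 1.47 and leaving out control replicate 1 gave 2.06. Counting intervals ran from 4.8 to 18.4 counts in control replicate 1, the highest control, and from 11.4 to 29.7 counts in PCBP1-OE replicate 3, the lowest PCBP1-OE library.

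**Figure D1:**
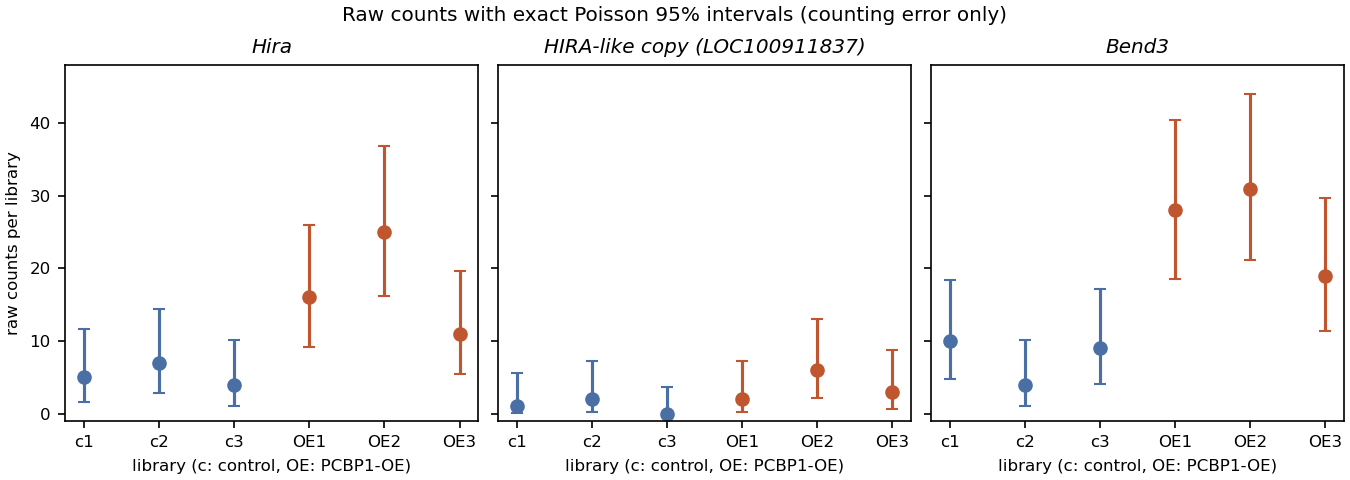
Raw counts (vertical axis, counts per library) of Hira, the HIRA-like row and Bend3 in control replicates 1 to 3 (c1 to c3) and PCBP1-OE replicates 1 to 3 (OE1 to OE3), with exact 95% Poisson intervals for counting error. Hira ran from 4 to 7 counts in controls and 11 to 25 in PCBP1-OE, Bend3 from 4 to 10 and 19 to 31, and the HIRA-like row stayed between 0 and 6.

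Values of genes with as few counts as these are given beside those of the others, without a test between them. Of the 836 tested genes with at most 101 counts in all, 61.4% had a positive log2 fold change, with a median of 0.12, and 32 were at least 2-fold higher in PCBP1-OE while 7 were at least 2-fold lower. By edgeR's quasi-likelihood test 5 of the 836 were called higher and 0 lower. Of the 11788 genes above that total, 49.7% were positive, with a median of -0.0015, and 24 and 9 passed 2-fold in the same directions. Both Hira and Bend3 belong to the 32. The part of these values, and of the larger number of detected genes in PCBP1-OE, in their change was not tested.

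Of the other 8 genes, 3 passed an adjusted p of 0.05 by edgeR's quasi-likelihood test, adjusted by Benjamini and Hochberg's method, against 9.45% of all genes tested. They were Atrx, which rose, and Asf1b and Chaf1b, which fell, where 4.45% of all genes were called higher and 5.0% lower. The 8 were added to the set with results of these libraries known, so their calls are not independent evidence about the pathway. The groups did not overlap in 4 of the 8, against 30.6% of all genes. None of the 8 moved by more than 0.28 on the log2 scale, and their median log2 fold change was -0.077, against 0.00292 over all genes tested. Hira and Bend3 passed the adjusted p and a difference of at least 2-fold, as 0.19% of all genes did, and nothing is read from this since it chose them. Even so, Hira missed the adjusted p when any 1 of the libraries other than PCBP1-OE replicate 3 was left out, and Bend3 missed it without control replicate 2 or replicate 1 or 2 of PCBP1-OE.

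Among the other 8, the calls were Asf1b and Atrx without control replicate 1, Atrx alone without PCBP1-OE replicate 3, and Asf1b, Atrx, Chaf1b and Chaf1a without control replicate 3. There were 0 calls without control replicate 2 or without replicate 1 or 2 of PCBP1-OE. The whole table shrank in those last 3 fits to 48, 169 and 136 called genes, from 1193.

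**Figure D2:**
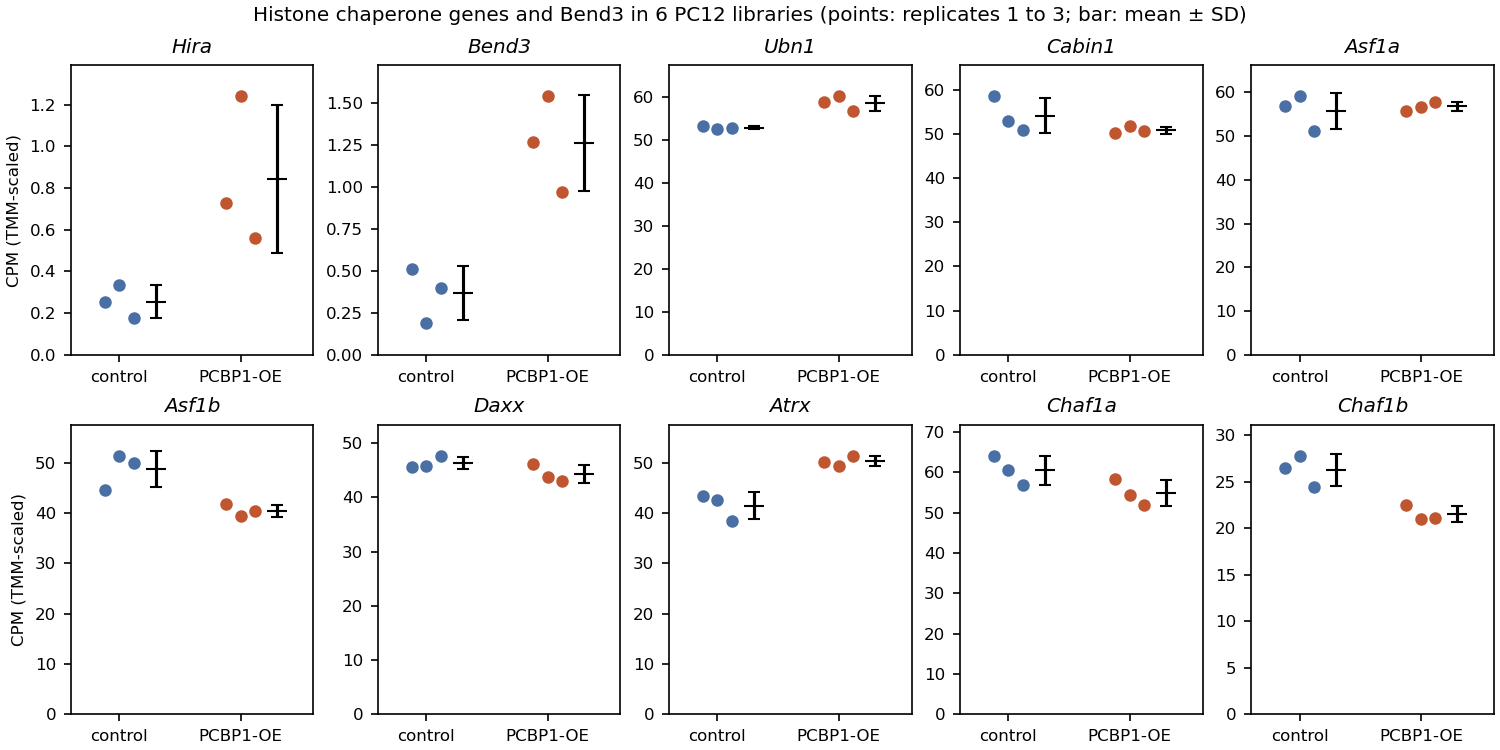
Scaled counts (vertical axes, CPM, each starting at 0) of the 10 genes in 3 control and 3 PCBP1-OE libraries, with points for replicates 1 to 3 from left to right and bars for the mean and SD. Hira and Bend3 stayed below 2 CPM, while Atrx was higher and Asf1b and Chaf1b were lower in every PCBP1-OE library than in every control.

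The partners of Hira in its complex did not pass the test. Ubn1 (ENSRNOG00000003019, chromosome 10), a subunit that binds HIRA and H3.3, was at 53.1, 52.4 and 52.8 CPM in controls and 58.7, 60.1 and 56.7 CPM in PCBP1-OE. All 3 PCBP1-OE libraries lay above the controls, whose spread was narrow. The log2 fold change was 0.15, with a 95% interval of 0.04 to 0.26, and its adjusted p of 0.0724 by edgeR's quasi-likelihood test missed the threshold, as it did in all 15 alternatives (0.0528 to 0.219). Cabin1 (ENSRNOG00000001237, chromosome 20), the third core subunit and an inhibitor of calcineurin, was at 58.5, 52.8 and 50.9 CPM in controls and 50.1, 51.7 and 50.6 CPM in PCBP1-OE. Its groups overlapped, the log2 fold change was -0.09 (95% interval -0.22 to 0.04) and the adjusted p was 0.356 by the same test.

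Of the H3-H4 carriers, Asf1b passed the test and Asf1a did not, and the difference between them was not itself tested. Asf1a (ENSRNOG00000000415, chromosome 20), the carrier tied to HIRA, was at 56.8, 59.1 and 51.2 CPM in controls and 55.8, 56.6 and 57.9 CPM in PCBP1-OE. The PCBP1-OE values lay inside the range of the controls, with a log2 fold change of 0.03 (95% interval -0.1 to 0.16, adjusted p = 0.787 by edgeR's quasi-likelihood test), and without control replicate 3 the value was -0.03. Asf1b (ENSRNOG00000005115, chromosome 19), the carrier of proliferating cells, had 874, 1072 and 1122 counts in controls and 918, 792 and 790 counts in PCBP1-OE, or 48.7 ± 3.6 and 40.4 ± 1.2 CPM (SD, n = 3 each). In CPM, all 3 PCBP1-OE libraries (39.3 to 41.7) were below all controls (44.6 to 51.4), and Asf1b fell by 0.27 on the log2 scale (standard error 0.06, 95% interval -0.41 to -0.13, adjusted p = 0.0252 by the same edgeR test). Leaving out control replicate 2 gave an adjusted p of 0.136, and leaving out PCBP1-OE replicates 1, 2 and 3 gave 0.0745, 0.101 and 0.0603. With the replicate number as a block the adjusted p was 0.127. Across the 15 alternatives it lay between 0.000686 and 0.136.

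DAXX and ATRX work as a pair, and here only Atrx passed the test, a difference between the genes that was not itself tested. Atrx (ENSRNOG00000056703, chromosome X), the chromatin remodeler of the pair, was at 43.3, 42.6 and 38.4 CPM in controls and 50.2, 49.3 and 51.4 CPM in PCBP1-OE. The groups were apart by more than their spread, and the log2 level of Atrx rose by 0.28 (standard error 0.06, 95% interval 0.15 to 0.41, adjusted p = 0.0179 by edgeR's quasi-likelihood test). It no longer passed without control replicate 2 (adjusted p = 0.0692) or without replicate 1 or 2 of PCBP1-OE (0.0718 and 0.06). With the replicate number as a block it did not pass either (0.113), and over all alternatives its adjusted p ran from 0.000248 to 0.113. Daxx (ENSRNOG00000000477, chromosome 20), the H3.3 chaperone of the pair, was at 45.6, 45.7 and 47.7 CPM in controls and 46.1, 43.7 and 43.0 CPM in PCBP1-OE. Its groups overlapped, and its log2 fold change was -0.06 (95% interval -0.18 to 0.06, adjusted p = 0.48 by the same test).

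Both large subunits of CAF-1 had negative fold changes, and Chaf1b passed the test. Chaf1b (ENSRNOG00000001692, chromosome 11), the WD-repeat subunit, was at 26.5, 27.8 and 24.4 CPM in controls and 22.5, 21.0 and 21.1 CPM in PCBP1-OE. The groups did not overlap, and Chaf1b fell by 0.28 on the log2 scale (standard error 0.08, 95% interval -0.46 to -0.11, adjusted p = 0.0433 by edgeR's quasi-likelihood test). The call was lost without control replicate 1 or 2 (0.135 and 0.189) and without PCBP1-OE replicate 1, 2 or 3 (0.115, 0.147 and 0.0923). Upper-quartile scaling (0.056) and the replicate number as a block (0.138) also lost it. Over all alternatives the adjusted p of Chaf1b was 0.00717 to 0.189. Chaf1a (ENSRNOG00000046479, chromosome 9), which binds the replication clamp PCNA, was at 64.2, 60.6 and 57.0 CPM in controls and 58.3, 54.5 and 52.0 CPM in PCBP1-OE. PCBP1-OE replicate 1 lay within the control range. The log2 fold change was -0.14 (95% interval -0.27 to -0.01) with adjusted p = 0.149 by the same test, which became 0.0389 without control replicate 3 and was 0.0389 to 0.422 over all alternatives.

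**Figure D3:**
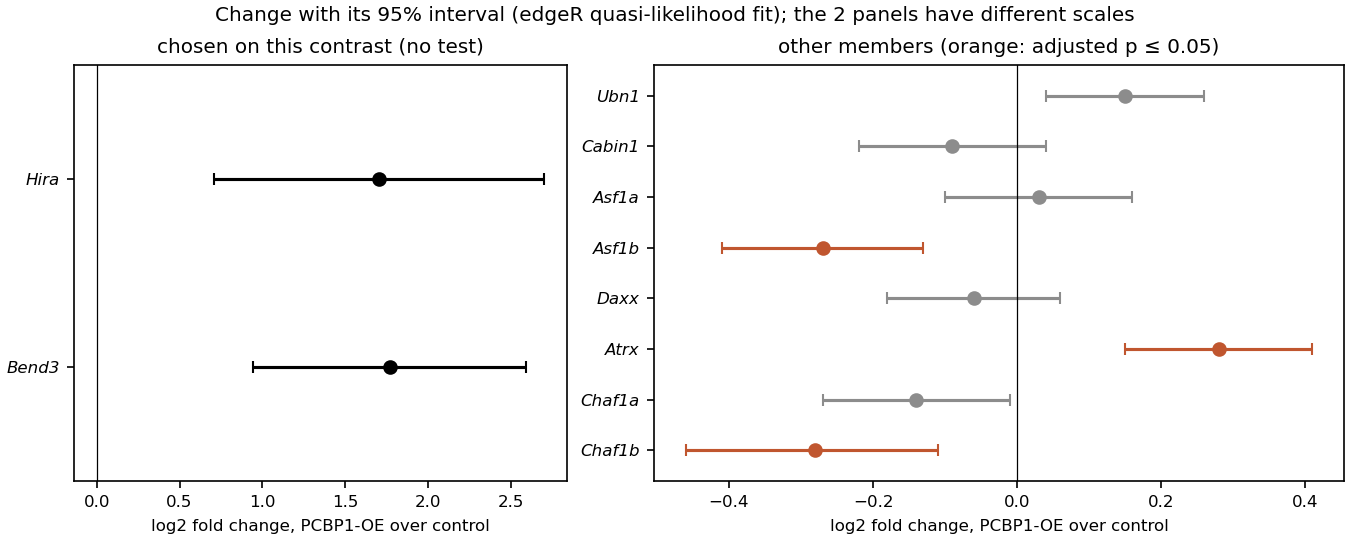
Log2 fold change of PCBP1-OE over control (horizontal axes, with different scales in the panels) with its 95% interval from the edgeR quasi-likelihood fit, Hira and Bend3 on the left and the other 8 genes on the right. Hira at 1.7 and Bend3 at 1.77 stand on another scale than the others, of which Atrx at 0.28, Asf1b at -0.27 and Chaf1b at -0.28 (orange) passed the test.

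Shares of counts within a pair of genes of 1 library do not depend on the scaling between libraries, and since the lengths of the transcripts do not enter, only their differences between libraries can be read. The 4 pairs were formed after the values were seen, so they are described without a test. Asf1b made up 44.0%, 46.5% and 49.4% of the Asf1a and Asf1b counts in the control libraries and 42.7%, 40.9% and 41.1% in the PCBP1-OE libraries. Means were 46.6% ± 2.72 and 41.6% ± 1.01 (SD, n = 3 each). For Chaf1b among the CAF-1 counts the mean share was 30.2% ± 1.15 against 28.2% ± 0.604 in PCBP1-OE (SD, n = 3 each), for Atrx beside Daxx 47.2% ± 2.23 and 53.2% ± 1.14, and for Ubn1 beside Cabin1 49.4% ± 1.72 and 53.5% ± 0.595. In each of the 4 pairs the groups did not overlap, so leaving out any 1 library could not change the sign of the difference. Other pairs were not examined, and the groups did not overlap for 30.6% of single genes tested.

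**Figure D4:**
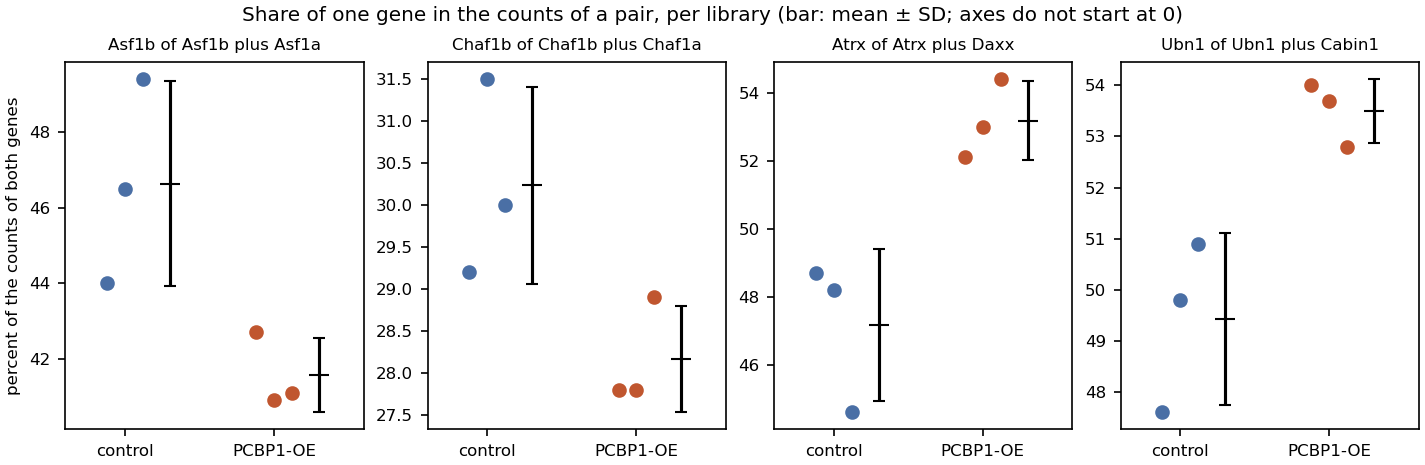
Share of the first gene in the counts of a pair (vertical axes, percent, not starting at 0) in 3 control and 3 PCBP1-OE libraries, with bars for the mean and SD. The share of Asf1b was 40.9% to 42.7% in PCBP1-OE and 44.0% to 49.4% in controls, and that of Atrx was 52.1% to 54.4% and 44.6% to 48.7%.

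Genes that work with these chaperones were taken from 4 partner lists, and genes of S phase, when CAF-1 and ASF1B are used most, from another list. The counts of these lists stand against 9.45% of all genes called, 4.45% higher and 5.0% lower, and the lists were not tested as sets. Of 8 tested rows of HIRA and H3.3 partners, 1 rose, 0 fell and the median log2 fold change was 0.086. The gene that rose was H3f3b (ENSRNOG00000006532, chromosome 10), which encodes H3.3 itself, with 2520 to 2630 CPM in controls and 2810 to 3020 CPM in PCBP1-OE. Its log2 difference was 0.16 (standard error 0.04, adjusted p = 0.042 by edgeR's quasi-likelihood test), a call that edgeR's exact test did not make. Of the 8 rows DESeq2 called 3, the exact test 0 and limma-voom 1. Of all genes with an adjusted p, these tools called 13.3%, 12.6% and 9.48%. A row of the same symbol on chromosome 13 (ENSRNOG00000003220) had a log2 fold change of -0.14 (adjusted p = 0.0743), and how reads were divided between them is uncertain.

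Of 13 tested rows of CAF-1 and histone supply partners, 1 rose and 1 fell, with a median of -0.081. Tlk2, a kinase that phosphorylates ASF1, rose by 0.21 in log2 (standard error 0.04, adjusted p = 0.0152, same edgeR test), with 96.7 to 102 CPM in controls and 112 to 116 CPM in PCBP1-OE. Mcm2, a helicase subunit that also holds H3-H4, fell by 0.2 (standard error 0.05, adjusted p = 0.022), with 153 to 161 CPM in controls and 132 to 142 CPM in PCBP1-OE. Among 25 tested rows of other histone chaperones, such as FACT, NAP1 and nucleoplasmin family genes, 0 passed an adjusted p of 0.05 by edgeR's quasi-likelihood test, 8 had an unadjusted p under 0.05, where 28.4% of all genes did, and the median was -0.01. DESeq2 called 3 of the 25, edgeR's exact test 3 and limma-voom 1, against 13.3%, 12.6% and 9.48% of all genes with an adjusted p by each tool. The largest changes in that list were Nap1l2 at 0.5 (adjusted p = 0.127) and Spty2d1 at 0.47 (adjusted p = 0.0544).

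Of 20 tested BEN domain genes and BEND3 partners, 3 rose and 1 fell, with a median of 0.047. Suz12, a subunit of the Polycomb complex PRC2, had 10.4, 8.1 and 13.1 CPM in controls and 17.2, 17.7 and 14.3 CPM in PCBP1-OE. It rose by 0.64 in log2 (standard error 0.15, adjusted p = 0.0242 by edgeR's quasi-likelihood test). Gatad2b and Mbd3 are subunits of the NuRD deacetylase complex, and they went in opposite directions, with log2 fold changes of 0.34 (standard error 0.09, adjusted p = 0.0383) and -0.2 (standard error 0.05, adjusted p = 0.0244). Smarca5, a nucleosome remodeler, rose by 0.17 (standard error 0.04, adjusted p = 0.0324). Among the tested BEN domain genes that did not pass were Bend4 at 0.49 (adjusted p = 0.254), Bend6 at 0.12 (adjusted p = 0.371), Nacc1 at -0.12, Nacc2 at 0.24 and Banp at 0.23, and Bend5 and Bend7 had at most 5 counts in any library. As with Bend3, the groups did not overlap for Bend4, Bend6, Nacc2 and Banp, which were higher, or for Nacc1, which was lower. Over the 20 rows this held for 7 that were higher and 4 that were lower, against 30.6% of all genes.

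Of 17 S-phase genes tested, 0 rose, 4 fell and 13 had a negative log2 fold change, with a median of -0.14, where 4.45% of all genes tested were called higher and 5.0% lower. E2f1, a transcription factor that drives S-phase genes, fell by 0.33 on the log2 scale (standard error 0.06, adjusted p = 0.00978 by edgeR's quasi-likelihood test), Mcm3 by 0.26 (adjusted p = 0.00777), Mcm7 by 0.22 (adjusted p = 0.0137) and Rrm1, a subunit of ribonucleotide reductase, by 0.15 (adjusted p = 0.0494). Summed over the list, they were at 1520 to 1560 CPM in controls and 1440 to 1500 CPM in PCBP1-OE, so the summed level was lower in every PCBP1-OE library, as were Asf1b and Chaf1b, and its part in their change was not tested. Rrm2, Ccne2, Gins2 and Pola1 had positive values of 0.23, 0.17, 0.12 and 0.09, none of which passed. In whole cultures, fewer cells in S phase and less of these transcripts per cell cannot be told apart. Leaving out control replicate 1, 2 or 3 changed the 7 called partner genes to 1, 0 or 16, and leaving out PCBP1-OE replicate 1, 2 or 3 changed them to 0, 0 or 3. The 4 called S-phase genes became 2, 0 or 7 and 2, 1 or 3 in the same order.

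**Figure D5:**
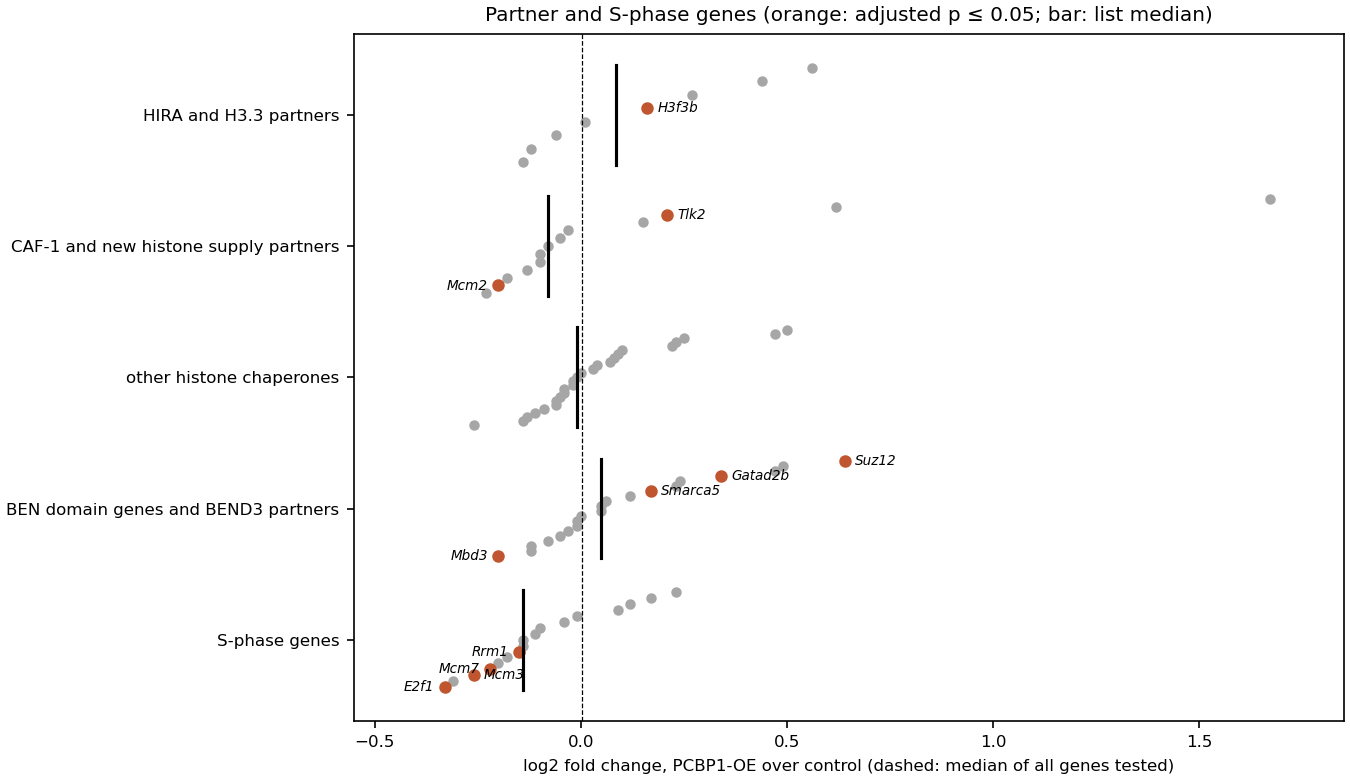
Log2 fold change of PCBP1-OE over control (horizontal axis) for the tested genes of 4 partner lists and the S-phase list, 1 point per row of the table, with orange for an adjusted p of 0.05 or less, a black bar for the median of each list and a dashed line for the median of all genes tested. The S-phase list has the lowest median, at -0.14, and the unnamed point at 1.67 is a Tlk1 row with 3 to 85 counts.

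The change of Hira and Bend3 was compared with that of their neighbours in the gene order of the RefSeq table of GRCr8, taking the nearest 3 genes on each side that are in the count table. Of the 6 around Hira, 4 were tested and 0 passed, and of the 6 around Bend3, 5 were tested and 0 passed by edgeR's quasi-likelihood test. None of the 9 had an unadjusted p under 0.05, where 28.4% of all genes did and 9.45% were called. The exact test and limma-voom called 0 of the 9, and DESeq2 called 0 of the 6 to which it gave an adjusted p. Mrpl40, the nearest match to Hira and the second gene after it, had a log2 fold change of -0.08 (95% interval -0.2 to 0.05). Cdc45, a helicase cofactor 5 genes from Hira, was at -0.18 (95% interval -0.39 to 0.04). Pdss2, 4 genes from Bend3, was at -0.01 (95% interval -0.2 to 0.17) and Cd24, 3 genes away on the other side, at -0.08 (95% interval -1.05 to 0.89), a wide interval from 6 to 13 counts per library. The remaining tested genes of Bend3, Scml4, Qrsl1 and Rtn4ip1, lie 8, 10 and 11 genes away and were at 0.58, 0.03 and -0.04 on the log2 scale. Before Hira the nearest tested genes, Lamp3 and B3gnt5, lie 21 and 22 genes away, so no close gene on that side was examined, and they were at 0.06 and 0.08. Cldn5, Mir6323 and Sobp had at most 2 counts in any library and were not tested.

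The genes whose pattern over the 6 libraries was most like that of Hira were found by the root mean square difference of log2 CPM, each gene centred on its own mean. A prior count of 2 was added before the log, which narrows the differences of genes with few counts, Hira and Bend3 included, and so bears on which genes come out near. The ranking used the same 6 values that chose Hira and Bend3, so genes with a large difference between the groups come out near by construction, and nothing is read from their identity. Out of 12623 other genes, the nearest were Oas1a (0.269), Mx2 (0.271) and Nppb (0.282). Oas1a and Mx2 are interferon-induced antiviral genes and Nppb encodes a natriuretic peptide. For Bend3 they were Oas2 (0.275), another antiviral gene, Mx2 (0.279) and Tuba8 (0.324), a tubulin. Hira and Bend3 were 0.503 apart, which made Bend3 the 119th gene from Hira and Hira the 76th from Bend3. The fitted log2 fold changes of Oas1a, Mx2 and Nppb were 1.04, 1.56 and 1.22, below the 1.7 of Hira, and those of Oas2 and Tuba8 were 2.14 and 2.37, above the 1.77 of Bend3.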

How the data were processed

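RNA-seq libraries of PC12 cells, 3 controls and 3 PCBP1-OE, were compared. The authors deposited raw counts of uniquely mapped reads per gene, without normalization. According to the methods, reads were trimmed with FASTX-Toolkit and aligned to Rnor_6.0 with TopHat2. The submitters' processing notes name GRCh38, which is not the genome of these rat gene identifiers. The methods and the labels name different stranded library kits. Which program counted the reads, and whether it used strand, is not given in the sources used here. Values of overlapping genes and of near-identical copies are therefore uncertain.

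Genes were tested with edgeR 4.0.16 (R 4.3.3), by the quasi-likelihood test with TMM scaling, after filterByExpr (minimum count 10, minimum total count 15), which left out 7985 genes. Adjusted p-values are Benjamini-Hochberg over all 12624 genes tested, and standard errors and 95% intervals come from the same fit. The pipeline was tested on simulated data. All changes simulated were at least 2-fold, so that test does not cover smaller ones such as those of Atrx, Asf1b and Chaf1b. Totals of 19730209 to 22315623 counts set the depth. CPM and intervals on counts were computed here, and intervals cover counting error only. The alternatives tried were scaling by RLE or by the upper quartile, leaving out the filter, a filter of 1 CPM in 3 libraries, DESeq2 1.42.0, edgeR's exact test, limma-voom (limma 3.58.1), the replicate number as a block, each library left out, and, added after seeing the data, Hira summed with its HIRA-like copy. Members, lists and tests were chosen with earlier results of these data known. Named are all members, at most 5 genes of each list with the smallest p among those passing (otherwise the 2 with the largest change), the neighbours and the 3 nearest patterns; other genes named were chosen after their values were seen. Promoters are from RefSeq on GRCr8, and 9 of 10 members matched. Protein sequences were not used here. Some list genes had no match and were not analysed here.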

Additional observations from a re-analysis of the deposited data

How the results depend on the processing

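The number of called members was 5 in the main analysis, 3 with DESeq2 and 3 with the stricter filter, which removed Hira and Bend3. In the main analysis 9.45% of all genes tested were called, and 0.19% with at least a 2-fold change. The 5 include Hira and Bend3, whose change chose the set, so nothing is read from their part in these counts. Members called with at least a 2-fold change numbered 2, Hira and Bend3. There were 0 with DESeq2, which gave Hira and Bend3 no adjusted p, and 0 with the stricter filter. Over all genes, 1193 calls among 12624 genes tested became 2090 among 20609 without a filter. The 24 with at least 2-fold became 72 without a filter, 10 with DESeq2 and 49 with the exact test. The 7 called partner genes became 16 without a filter, 13 with DESeq2 and 11 with the exact test. Without control replicate 3 the 5 called members were not the same genes, since Hira was lost and Chaf1a gained. With each library left out in turn, called members ranged from 0 to 5 and those with at least 2-fold from 0 to 2, calls over all genes from 48 to 2860 and with at least 2-fold from 5 to 83, partner genes from 0 to 16 and S-phase genes from 0 to 7. Calls of neighbouring genes stayed at 0 in all 15 alternatives. Asf1a changed sign without control replicate 3, to -0.03, and ranged up to 0.08 without control replicate 2. The log2 fold change of Hira ranged from 1.33 to 1.95 and of Bend3 from 1.47 to 2.06. Upper-quartile scaling moved the median of all genes from 0.00292 to 0.0227 and left 4 members called.

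With the replicate number as a block, 0 members, 0 with at least 2-fold, 0 partner genes, 0 S-phase genes and 16 genes in all were called, 4 of them with at least 2-fold. The labels share only numbers between groups, and same-numbered libraries had correlations of their deviations of -0.0776, -0.0514 and -0.0428, so no library matched best with its own number. The few counts of Hira and Bend3 limit the precision of their values. The causes of these moves were not tested.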

Other observations

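Hirip3 (ENSRNOG00000029061, chromosome 1), which encodes a histone-binding partner of HIRA and was looked at after its values were seen, had 63.0, 65.0 and 70.0 CPM in controls and 65.2, 66.1 and 62.7 CPM in PCBP1-OE. Its groups overlapped, with a log2 fold change of -0.03 (95% interval -0.14 to 0.08, adjusted p = 0.752 by edgeR's quasi-likelihood test). Ubn2, the paralog of Ubn1, had 99 to 172 counts in controls and 181 to 225 counts in PCBP1-OE. Scaled by library size its groups overlapped, and its log2 difference was 0.56 (95% interval 0.15 to 0.98, adjusted p = 0.0785 by the same test). Pml and Sp100, which encode proteins of the nuclear bodies where DAXX resides, were at 0.27 (adjusted p = 0.075) and 0.44 (adjusted p = 0.122) on the log2 scale. Tlk1, an ASF1 kinase beside Tlk2, was split over 2 rows, and in ENSRNOG00000060572 PCBP1-OE replicate 2 held 85 counts where the other 5 libraries had 3 to 19.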
